A study of Homo sapiens with 24 samples.

Results

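HT1080 knockout clones 8 and 21 were 2 of the 4 HT1080 clones of the series. Their 4 arrays were compared probe by probe, out of 24 arrays in all. HT1080 is an established human fibrosarcoma line, a tumour of mesenchymal origin. Both clones carry the genotype label knockout, and the series concerns TALEN knockouts of Rap1, the telomere-binding shelterin protein encoded by TERF2IP. Each clone was hybridised on 2 arrays, and 2 wild-type HT1080 clones, 2 and 9, with 2 arrays each, served as the reference for the line. No treatment is named for any array, and the sources used here do not give the mutation carried by each knockout clone. Each knockout clone is a single clone, so a difference between them cannot be told apart from a difference between any 2 clones of the line.

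Clones grown from single cells of a tumour line can differ in gene expression because the parental culture is a mixture and because each clone goes on changing in culture. Fibrosarcoma cells secrete and remodel extracellular matrix, a network of collagens, glycoproteins and proteoglycans that is cross-linked by lysyl oxidases, cut by metalloproteinases and bound by integrins. Interferon-stimulated genes are switched on by STAT and IRF factors downstream of interferon receptors and nucleic acid sensors, and many of them act against viruses.

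The deposited values are log values, and the median of every probe over the 8 HT1080 arrays is 0. They were taken as log2. A value of 0 is therefore the middle of the line for that probe, and the table holds differences between arrays and no expression levels. For the same reason the label HT1080 could not be checked against the level of its markers. Differences below are log2 clone 8 minus clone 21 ± the standard error of the limma fit, with 2 arrays per clone. A probe was called where limma's adjusted p (Benjamini-Hochberg over all 47323 probes, two-sided) was below 0.05 and both arrays of one clone lay on the same side of both arrays of the other. A gene was called where at least 1 of its probes was called and none was called the other way.

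Both arrays of one knockout clone lay on the same side of both arrays of the other for 19420 of 47323 probes (41%). In 10026 (21.2%) clone 8 lay above and in 9394 (19.9%) it lay below. With the 4 arrays in random order, the share of probes parted in this way would be 0.333. Far fewer were called, 1253 probes (2.65%), of which 537 (1.13%) were higher in clone 8 and 716 (1.51%) were higher in clone 21. A fit without 1 of the 4 arrays leaves a single array for that clone and so has less power, whichever array it is. These counts fell in each such fit, which does not mark any array as different. Without clone 8 replicate 1 they were 306 and 430, without clone 8 replicate 2 they were 334 and 476, without clone 21 replicate 1 they were 292 and 383, and without clone 21 replicate 2 they were 286 and 381. All 229 probes that differed at least 2-fold were called (0.484% of probes), 87 (0.184%) higher in clone 8 and 142 (0.3%) higher in clone 21. After quantile normalization these were 135 and 161. In genes, 387 of 20046 (1.93%) were called higher in clone 8 and 531 (2.65%) higher in clone 21. At 2-fold the numbers were 58 (0.289%) and 113 (0.564%). Wild-type clones 2 and 9, compared in the same fit, gave 3876 called probes (8.19%) and 487 at 2-fold (1.03%). The spread of the clone differences over all probes was also smaller between the knockout clones (SD 0.217) than between the wild-type clones (SD 0.274). With 1 pair of clones per genotype, the difference between the pairs has no test.

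TERF2IP, the targeted gene, was low in both knockout clones. Its values were -1.68 and -1.79 on the arrays of clone 8, -1.11 and -1.20 on those of clone 21, and 1.11 to 1.25 on the 4 wild-type arrays. Clone 8 lay below clone 21 by 0.58 ± 0.10 (limma adjusted p = 0.00736), and both lay below all wild-type arrays. The call between the clones was lost without clone 8 replicate 2 (-0.53, adjusted p = 0.0739), without clone 21 replicate 1 (-0.54, adjusted p = 0.0939) and after quantile normalization (-0.36, adjusted p = 0.0870). The exact two-sided permutation test of 2 against 2 arrays gave p = 0.333, the smallest this design allows. The sources used here do not give where the probe lies relative to the TALEN site. None of the other 5 shelterin genes was called between the clones by limma, 2 of them had a probe at an unadjusted p under 0.05, and the genes had differences between -0.23 for ACD and 0.22 for TERF2.

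The 15 genes with the largest differences in each direction were picked for their differences between the clones, so their values are a description. HBE1, the embryonic epsilon-globin gene, differed most in favour of clone 8. Its values were 1.37 and 1.22 in clone 8, -2.99 and -2.98 in clone 21, and between -0.20 and 0.24 on the wild-type arrays. The clones lay on opposite sides of the wild-type arrays and differed by 4.29 ± 0.10 (19.5-fold, adjusted p = 4.5e-10).

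**Figure D1:**
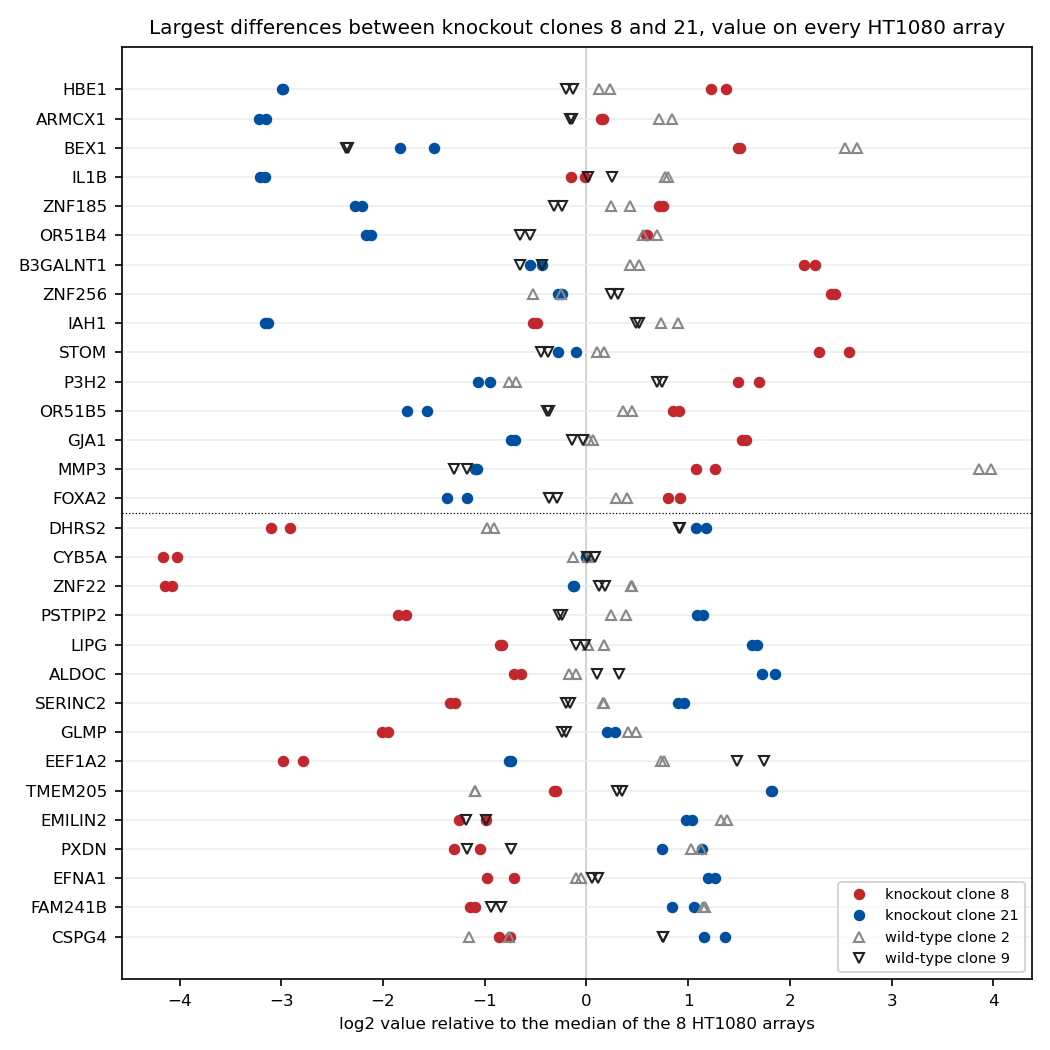
Value of the 30 genes with the largest differences on each of the 8 HT1080 arrays, on a log2 scale centred on the median of the 8 arrays. Filled circles are the arrays of knockout clones 8 and 21 and open triangles those of wild-type clones 2 and 9. The 15 genes above the dotted line were higher in clone 8, led by HBE1 at 1.37 and 1.22 against -2.99 and -2.98, and the 15 below it were higher in clone 21.

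ARMCX1, an X-linked armadillo-repeat gene, read 0.17 and 0.14 in clone 8 against -3.22 and -3.15 in clone 21, with wild-type arrays between -0.16 and 0.85. Only clone 21 stood outside the rest, and the clones differed by 3.34 ± 0.10 (adjusted p = 2.6e-09). The other probe of ARMCX1 differed by 2.75 and was called. IL1B, the cytokine interleukin-1 beta, had the same shape. It read -0.01 and -0.16 in clone 8, -3.16 and -3.21 in clone 21 and 0.01 to 0.80 in the wild-type clones, a difference of 3.10 ± 0.11 (adjusted p = 1.3e-08). In IAH1, a gene for an esterase of the GDSL family, clone 21 again lay apart at -3.13 and -3.16, while clone 8 read -0.52 and -0.49 and the wild-type arrays 0.49 to 0.90.

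Other genes were high in clone 8 alone. STOM, which encodes the membrane protein stomatin, read 2.58 and 2.29 in clone 8, against -0.11 and -0.28 in clone 21 and -0.45 to 0.18 in the wild-type clones (2.63 ± 0.12). Its second probe differed by 0.56 and was not called. ZNF256, a zinc finger gene, read 2.45 and 2.40 in clone 8, and the other 6 arrays lay between -0.53 and 0.31. B3GALNT1, a glycosyltransferase of globoside synthesis, read 2.14 and 2.25 in clone 8, and its other 4 probes differed by 0.14 to 1.27, with 2 of them called.

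In GJA1, which encodes a connexin of gap junctions, clone 8 read 1.57 and 1.53, clone 21 read -0.70 and -0.74, and the wild-type arrays lay between at -0.14 to 0.07. The clones thus lay at opposite ends of the line (2.28 ± 0.10, adjusted p = 5.6e-08). FOXA2, a forkhead transcription factor, also placed them at opposite ends, at 0.92 and 0.80 against -1.37 and -1.17. Its other 2 probes differed by 0.09 and 0.19 and were not called.

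BEX1 and MMP3 differed more between the wild-type clones than between the knockout clones. BEX1 read 1.51 and 1.49 in clone 8 and -1.49 and -1.83 in clone 21, but 2.66 and 2.54 in wild-type clone 2, with -2.36 and -2.34 in wild-type clone 9. Neither knockout clone lay outside the other arrays. A second BEX1 probe differed by 0.05 and was not called.

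DHRS2, a mitochondrial short-chain dehydrogenase gene, differed most in favour of clone 21. Its values were -2.91 and -3.10 in clone 8, 1.08 and 1.17 in clone 21, -0.97 and -0.91 in wild-type clone 2, with 0.92 and 0.91 in wild-type clone 9. The difference was -4.13 ± 0.11 (17.5-fold, adjusted p = 4.6e-10), and the other probe differed by -3.70.

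CYB5A, the gene of cytochrome b5, and ZNF22, a zinc finger gene, were low in clone 8 alone. CYB5A read -4.16 and -4.03 in clone 8, and the other 6 arrays lay between -0.13 and 0.08, so that clone 8 stood alone (-4.09 ± 0.11, 17.1-fold, adjusted p = 4.6e-10). ZNF22 read -4.14 and -4.07 in clone 8, with -0.13 and -0.12 in clone 21 and 0.12 to 0.45 in the wild-type clones (-3.98 ± 0.10). A second probe of each gene was called the same way, at -2.53 for CYB5A and -3.42 for ZNF22. GLMP, which encodes a lysosomal membrane protein, read -2.01 and -1.95 in clone 8 and -0.24 to 0.48 on the other 6 arrays.

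EEF1A2, the tissue-restricted copy of translation elongation factor 1 alpha, was below wild type in both clones and lowest in clone 8. It read -2.98 and -2.79 in clone 8, -0.76 and -0.74 in clone 21 and 0.74 to 1.75 on the wild-type arrays. LIPG, which encodes endothelial lipase, had its highest values in clone 21, at 1.62 and 1.67, against -0.83 and -0.85 in clone 8 and -0.10 to 0.17 in the wild-type clones. ALDOC, a brain-type aldolase, read 1.73 and 1.85 in clone 21 against -0.64 and -0.71 in clone 8. TMEM205 was high in clone 21 alone, at 1.82 and 1.83, and the other 6 arrays lay between -1.10 and 0.35.

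The position of the wild-type arrays was used to sort the 229 probes called at 2-fold. In 59 (25.8%) both knockout clones lay outside the wild-type arrays at opposite ends, against 0.98% of all probes. Clone 8 alone lay apart below the other 6 arrays in 49 (21.4%, against 5.59% of all probes) and above them in 28 (12.2%, against 3.99%). Clone 21 alone lay apart above them in 40 (17.5%, against 4.17%) and below them in 28 (12.2%, against 5.92%). In the remaining 25 probes (10.9%) neither clone lay outside the other arrays, against 79.3% of all probes, as in BEX1 and MMP3. These 2-fold probes were chosen for a difference between the clones, so their positions are a description.

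Of the 171 genes called at 2-fold, 66 had more than 1 probe, which left 108 other probes. Of these, 91 differed in the same direction and 55 were called the same way. A gene with probes called both ways would not have been counted as called. The probe with the largest difference of all, ILMN_3237946, has no gene name in the annotation. It read -2.76 and -2.65 in clone 8 and 2.41 and 2.34 in clone 21 (-5.07 ± 0.11), and wild-type clones 2 and 9 differed on it by as much, at 2.92 and 2.96 against -2.57 and -2.34. In all, 29 of the 229 probes were unnamed.

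The members of this and the later lists were chosen with earlier results of these data known. Their shares, set against all genes without any filter, are therefore a description. Most of the called matrix genes were higher in clone 21. Of 138 measured matrix genes, 35 were called (25.4%, against 4.58% of all genes), 27 higher in clone 21 (19.6%, against 2.65%) and 8 higher in clone 8 (5.80%, against 1.93%). At 2-fold, 13 were higher in clone 21 (against 0.564% of all genes) and 3 in clone 8 (against 0.289%). The median difference over the 138 genes was -0.10, against 0.00 for all genes. Of the 35 calls, 24 were kept whichever of the 4 knockout arrays was left out, and 11 were lost without at least 1 of them, at adjusted p up to 0.273. Both counts, higher in clone 21 and higher in clone 8, fell whichever of the 4 arrays was left out. At a limma adjusted p of 0.01, 20 were higher in clone 21 and 7 in clone 8.

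Glycoproteins and proteoglycans, the largest of the matrix lists, held more calls than any other matrix list. Of 48 measured, 14 were called higher in clone 21, 9 of them at 2-fold, and 1 was higher in clone 8. In all, 31.2% of this list were called, against 4.58% of all genes. VCAN, the gene of the large proteoglycan versican, read -1.86 and -1.61 in clone 8, 0.27 and 0.22 in clone 21, -0.22 and -0.28 in wild-type clone 2, with 1.13 and 1.09 in wild-type clone 9. Clone 8 lay below all other arrays, and the difference was -1.98 ± 0.11 (3.95-fold, adjusted p = 4.4e-07).

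LAMA5, a laminin chain of basement membranes, read -1.21 and -1.15 in clone 8 and 0.72 and 0.66 in clone 21, and the wild-type arrays lay between at -0.28 to 0.33 (-1.87 ± 0.12, adjusted p = 1.4e-06). THBS1, which encodes the adhesive glycoprotein thrombospondin-1, also placed the clones at opposite ends, at -0.51 and -0.54 against 1.03 and 1.02. SPARC, a collagen-binding matricellular protein, did the same at -0.69 and -0.92 against 0.53 and 0.43.

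In a further set, clone 21 alone was high. CCN3, a matricellular protein of the CCN family, read 1.48 and 1.47 in clone 21, against -0.41 and -0.31 in clone 8 and -1.16 to 0.51 in the wild-type clones (-1.84 ± 0.11, adjusted p = 6.2e-07). BGN, the small proteoglycan biglycan, read 1.19 and 1.20 in clone 21 and -0.29 to 0.37 on the other 6 arrays. THBS2, a second thrombospondin, read 1.20 and 1.21 in clone 21 and -0.17 on both arrays of clone 8.

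FN1, the fibronectin gene, read -0.85 and -0.55 in clone 8 and 0.48 and 0.33 in clone 21, with wild-type clone 9 at 0.14 and 0.36 (-1.11 ± 0.13, adjusted p = 0.000320). IGFBP7, a secreted growth-factor-binding protein, was also called at 2-fold. LAMA4, LAMB1, MGP, TGFBI and IGFBP5 were called higher in clone 21 below 2-fold. TNC, the adhesion-modulating glycoprotein tenascin-C, went the other way, at 0.97 and 0.68 in clone 8, -0.16 and -0.09 in clone 21 and -0.24 to 0.17 in the wild-type clones (0.95 ± 0.12, adjusted p = 0.000751). Of these calls, LAMA4, TGFBI and IGFBP5 were among those lost without 1 array.

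**Figure D2:**
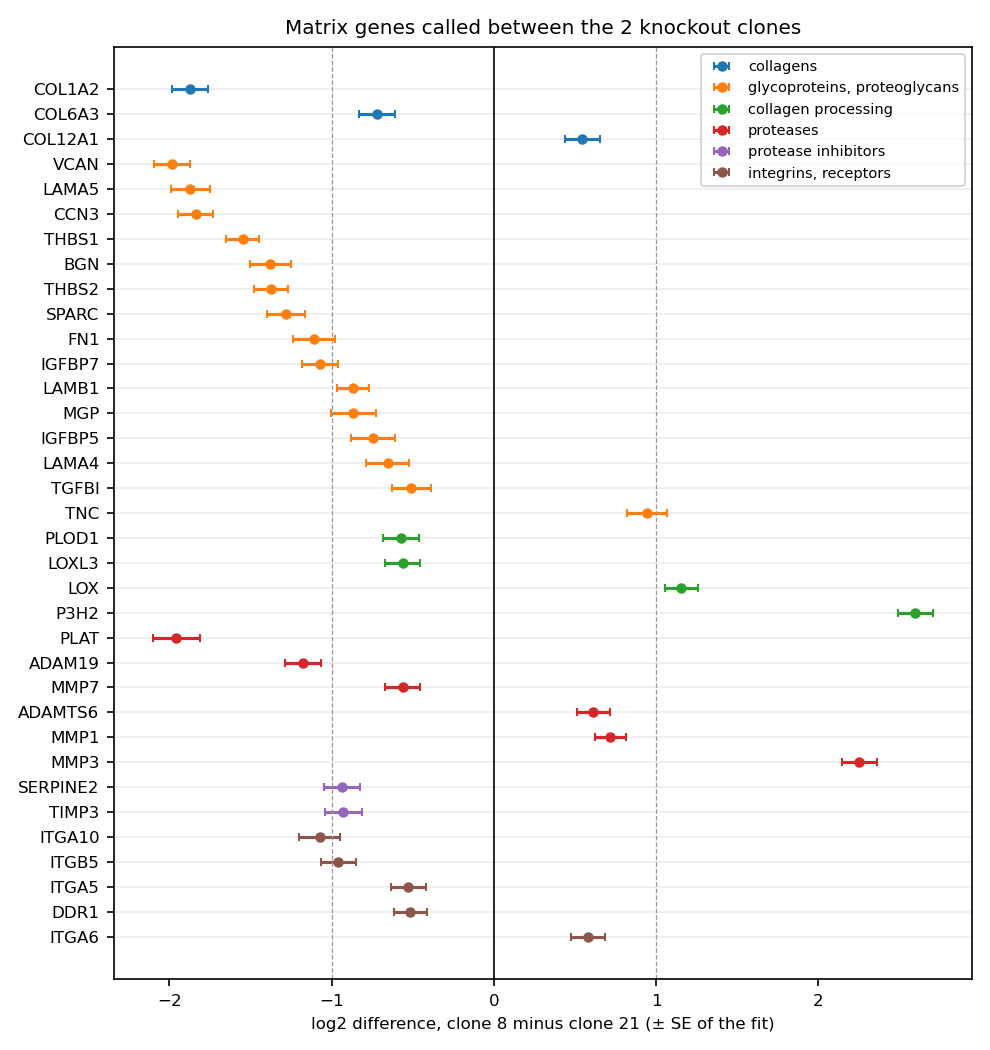
Log2 difference of clone 8 minus clone 21 ± SE of the fit (2 arrays per clone) for the 35 called matrix genes, coloured by role, with dashed lines at 2-fold. Glycoproteins and proteoglycans lie to the left, higher in clone 21, except TNC at 0.95, while collagen-processing enzymes and proteases lie on both sides, from PLAT at -1.96 to P3H2 at 2.60.

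Of 22 collagen genes, 3 were called (13.6%, against 4.58% of all genes). COL1A2, the alpha-2 chain of fibrillar type I collagen, read 1.83 and 1.75 in clone 21 and -0.16 to 0.10 on the other 6 arrays, so that clone 21 stood alone (-1.88 ± 0.11, 3.67-fold, adjusted p = 7.8e-07). The other probe of COL1A2 differed by -1.50 and was called. COL6A3, a chain of microfibrillar type VI collagen, was higher in clone 21 by 0.72, with a second probe at -0.54 that was also called. COL12A1 was higher in clone 8 by 0.55 ± 0.11 (adjusted p = 0.0167), a call that was lost without clone 8 replicate 1, clone 8 replicate 2 or clone 21 replicate 1, at adjusted p up to 0.216.

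Among 15 enzymes of collagen processing, 26.7% were called, against 4.58% of all genes. P3H2, a prolyl 3-hydroxylase, read 1.69 and 1.49 in clone 8 and -1.07 and -0.95 in clone 21 (2.60 ± 0.11, adjusted p = 3.9e-08). Here too the wild-type clones differed, with clone 2 at -0.76 and -0.69 and clone 9 at 0.74 and 0.69. LOX, the lysyl oxidase that cross-links collagen and elastin, was below wild type in both clones. It read -0.20 and -0.24 in clone 8, -1.34 and -1.41 in clone 21 and 0.20 to 1.03 on the wild-type arrays (1.16 ± 0.10, adjusted p = 2.6e-05). LOXL3 and PLOD1 were called higher in clone 21, and both calls were lost whichever of the 4 arrays was left out.

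Of 23 matrix protease genes, 3 were called in each direction (26.1% called, against 4.58% of all genes). MMP3, which encodes stromelysin-1, read 1.08 and 1.27 in clone 8 and -1.08 and -1.09 in clone 21 (2.25 ± 0.11, adjusted p = 1.4e-07). Wild-type clone 2 was higher than either, at 3.97 and 3.86, and wild-type clone 9 was as low as clone 21, at -1.18 and -1.30. MMP1, the interstitial collagenase, had the same order at a smaller size, with 0.35 and 0.38 in clone 8, -0.37 and -0.35 in clone 21, 2.17 and 2.18 in wild-type clone 2, with -0.67 and -0.73 in wild-type clone 9.

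PLAT, the tissue plasminogen activator gene, was higher in clone 21, at 0.94 and 1.13 against -0.75 and -1.09 in clone 8, with the wild-type arrays between at -0.55 to 0.47 (-1.96 ± 0.14, 3.88-fold, adjusted p = 5.0e-06). ADAM19, a membrane-bound metalloprotease, read -0.51 and -0.74 in clone 8 and 0.51 and 0.59 in clone 21. Wild-type clone 2 read -1.13 and -1.12 and wild-type clone 9 read 0.62 and 0.68, so neither knockout clone lay outside the other arrays. The second probe of ADAM19 differed by -0.10 and was not called. ADAMTS6 was called higher in clone 8 and MMP7 in clone 21, and each of these calls was lost without at least 1 array.

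Of 9 inhibitor genes, 22.2% were called, against 4.58% of all genes. TIMP3, a tissue inhibitor of metalloproteinases, and SERPINE2, an inhibitor of plasminogen activators and thrombin, were called higher in clone 21. TIMP3 read -0.94 and -0.86 in clone 8 and -0.20 to 0.18 on the other 6 arrays (-0.93 ± 0.11, adjusted p = 0.000447). Clone 8 alone was low. SERPINE2 read 0.77 and 0.73 in clone 21 and at most 0.42 elsewhere (-0.94 ± 0.11, adjusted p = 0.000302), so that here clone 21 alone was high.

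Of 21 integrins and matrix receptors, 23.8% were called, against 4.58% of all genes. ITGA5, ITGA10, ITGB5 and DDR1 were called higher in clone 21 and ITGA6 higher in clone 8. ITGA10, an alpha chain of a collagen-binding integrin, read -0.95 and -1.04 in clone 8 and -0.10 to 0.39 on the other 6 arrays (-1.07 ± 0.13, adjusted p = 0.000366). ITGB5, the beta chain of a vitronectin-binding integrin, read -0.58 and -0.69 in clone 8 and 0.37 and 0.28 in clone 21. Its other 4 probes differed by -0.96 to 0.01, and 2 of them were called. The calls of ITGA5, the alpha chain of the fibronectin receptor, of DDR1, a collagen-binding receptor kinase, and of ITGA6, the alpha chain of laminin-binding integrins, were each lost without at least 1 array.

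Most of the called interferon genes were also higher in clone 21. Of 112 measured in 4 lists, 12 were called (10.7%, against 4.58% of all genes), 10 higher in clone 21 (8.93%, against 2.65%) and 2 higher in clone 8 (1.79%, against 1.93%). Only LGALS3BP and IFI6 passed 2-fold. The count higher in clone 21 fell to 5 without clone 8 replicate 1, without clone 8 replicate 2 or without clone 21 replicate 2, to 4 without clone 21 replicate 1 and to 6 in a fit of the 4 knockout arrays alone. The count higher in clone 8 was 1 without clone 8 replicate 1, clone 8 replicate 2 or clone 21 replicate 2. The calls kept whichever array was left out were those of LGALS3BP, IFI6, IFI27, IFIT1 and HERC5. Values of effector genes below 2-fold are given after their calls were seen.

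The 9 called effector genes included 8 with the letters GAAANNGAAA, the core of an interferon-stimulated response element, in the 250 bases before the RefSeq gene start. N stands for any base, both strands were searched and overlapping matches were counted. All 9 genes were in the RefSeq promoter table (GRCh38.p14), and 3.02% of its 35116 promoters hold the letters in the same window. SAMD9L had none. Of the 46 effector genes that were not called, 33 were in the table, and 15 of these (45.5%) hold the letters too. The letters are thus common across the list, and the shares of called and uncalled members were not tested against each other, since many uncalled genes were not matched in the table. A match is a description of the sequence. The upstream sequences of 5 of the genes whose calls were kept are shown to place the matches, which are in capitals. They are on the gene's strand, 5′ to 3′, and each ends at the base before the gene start:
IFI6 (chr1:27672193-27672442, minus strand): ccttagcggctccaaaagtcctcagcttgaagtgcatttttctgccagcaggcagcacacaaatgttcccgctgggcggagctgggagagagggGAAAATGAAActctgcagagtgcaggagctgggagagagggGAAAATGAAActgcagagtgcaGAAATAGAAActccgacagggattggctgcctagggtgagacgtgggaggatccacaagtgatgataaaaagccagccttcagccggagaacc
IFIT1 (chr10:89392373-89392622, plus strand): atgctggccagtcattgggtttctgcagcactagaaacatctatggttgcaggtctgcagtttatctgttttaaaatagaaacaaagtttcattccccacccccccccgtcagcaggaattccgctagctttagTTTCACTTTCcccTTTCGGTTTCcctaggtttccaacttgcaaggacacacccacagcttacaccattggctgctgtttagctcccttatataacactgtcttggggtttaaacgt
IFI27 (chr14:94110486-94110735, plus strand): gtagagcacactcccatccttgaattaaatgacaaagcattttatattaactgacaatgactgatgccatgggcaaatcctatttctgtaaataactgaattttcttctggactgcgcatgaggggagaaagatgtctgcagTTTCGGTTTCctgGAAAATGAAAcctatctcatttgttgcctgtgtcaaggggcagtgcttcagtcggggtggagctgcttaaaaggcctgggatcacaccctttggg
LGALS3BP (chr17:78979924-78980173, minus strand): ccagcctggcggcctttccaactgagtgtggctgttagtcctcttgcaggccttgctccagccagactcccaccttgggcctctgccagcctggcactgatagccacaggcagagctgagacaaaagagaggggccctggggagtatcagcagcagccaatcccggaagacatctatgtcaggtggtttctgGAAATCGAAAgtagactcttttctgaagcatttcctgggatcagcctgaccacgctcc
HERC5 (chr4:88456869-88457118, plus strand): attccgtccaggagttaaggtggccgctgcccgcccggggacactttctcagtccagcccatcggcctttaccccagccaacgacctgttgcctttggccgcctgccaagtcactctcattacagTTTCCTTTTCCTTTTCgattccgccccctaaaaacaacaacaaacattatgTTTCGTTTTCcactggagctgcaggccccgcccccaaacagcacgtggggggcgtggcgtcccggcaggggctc

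In these windows IFI6 has 3 matches, which begin 156, 115 and 93 bases before the gene start. IFIT1 has 2, at 116 and 103 bases, both on the opposite strand, and IFI27 has 2, at 108 and 95 bases, on opposite strands. LGALS3BP has 1, at 58 bases. HERC5 has 3 on the opposite strand, at 125, 119 and 74 bases, of which the first 2 overlap. HERC5 was the 1 gene of these 5 that was higher in clone 8, so matches were found in genes called in either direction.

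LGALS3BP, which encodes a secreted galectin-3-binding glycoprotein, read -0.83 and -0.96 in clone 8, 0.20 and 0.26 in clone 21, 0.33 and 0.36 in wild-type clone 2, with -0.20 and -0.26 in wild-type clone 9. Clone 8 lay below all other arrays (-1.12 ± 0.10, 2.18-fold, adjusted p = 3.9e-05). IFI6, a mitochondrial interferon-induced protein, was highest in clone 21, at 0.66 and 0.71, against -0.34 and -0.31 in clone 8. Its wild-type arrays read 0.31 and 0.33 in clone 2, with -0.60 and -0.56 in clone 9 (-1.01 ± 0.10, adjusted p = 7.2e-05), and a second probe differed by -0.67 and was called.

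IFI27 differed more between the wild-type clones than between the knockout clones. It read -0.44 and -0.50 in clone 8 and 0.44 and 0.54 in clone 21 (-0.95 ± 0.11, adjusted p = 0.000340), against 0.99 and 0.75 in wild-type clone 2, with -3.09 and -3.18 in wild-type clone 9. IFIT1, which binds viral RNA that lacks host cap modifications, read -0.47 and -0.54 in clone 8 and 0.46 and 0.33 in clone 21. Wild-type clone 2 was higher still, at 0.69 and 0.63, and wild-type clone 9 was near clone 8, at -0.37 and -0.33. IFIT3, its binding partner, was called in the same direction, with IFI44 and SAMD9L, but the mean of the IFIT3 probes was not called (-0.33, adjusted p = 0.0900).

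HERC5, the ligase that attaches ISG15 to proteins, was higher in clone 8, at 0.37 and 0.28 against -0.69 and -0.66 in clone 21 (1.00 ± 0.10, adjusted p = 9.4e-05). Wild-type clone 9 was the highest, at 1.26 and 1.31, so that HERC5 and IFI27 ranked the wild-type clones in opposite orders. IFITM1, a membrane protein that blocks virus entry, was called higher in clone 8 by 0.61.

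Upstream of these effectors, 9.52% of 21 interferons, receptors and transducers were called, against 4.58% of all genes. IRF9, the DNA-binding subunit of the interferon-activated complex ISGF3, and IRF1, an interferon-induced transcription factor, were called higher in clone 21. IRF9 read -0.48 and -0.45 in clone 8, -0.031 and -0.0032 in clone 21, and 0.60 and 0.70 in wild-type clone 2. RIGI, a cytosolic sensor of viral RNA, was the single call among 14 sensors (7.14%, against 4.58% of all genes). It read -0.41 and -0.49 in clone 8 and 0.07 in both arrays of clone 21. The calls of IRF1, IRF9 and RIGI were lost whichever of the 4 knockout arrays was left out, with adjusted p from 0.0725 to 0.166, from 0.130 to 0.237 and from 0.0817 to 0.148. In a fit of the 4 arrays alone, IRF1 (adjusted p = 0.0518) and IRF9 (adjusted p = 0.0783) were also lost. None of 22 antigen presentation genes was called by limma, and 8 had a probe at an unadjusted p under 0.05.

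**Figure D3:**
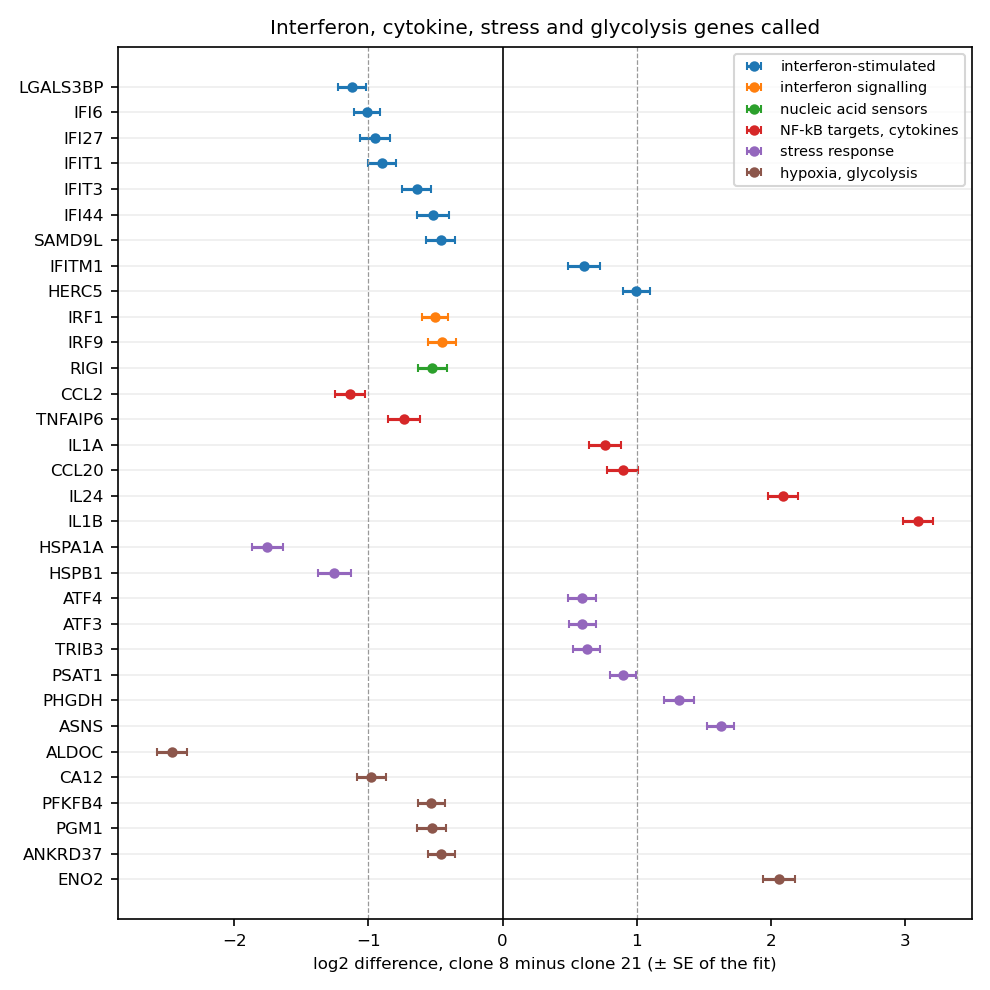
Log2 difference of clone 8 minus clone 21 ± SE of the fit (2 arrays per clone) for the called genes of the interferon, cytokine, stress and glycolysis lists, with dashed lines at 2-fold. Interferon-stimulated genes lie between -1.12 and 1.00, most of them on the side of clone 21, and IL1B at 3.10 and ALDOC at -2.46 lie farthest out.

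Of 31 NF-kB targets and cytokines, IL1B, IL24, CCL20 and IL1A were called higher in clone 8 and CCL2 and TNFAIP6 higher in clone 21 (19.4% called, against 4.58% of all genes). IL24, a cytokine of the interleukin-10 family, read 0.98 and 1.20 in clone 8 and -1.02 and -0.98 in clone 21 (2.09 ± 0.11, adjusted p = 3.3e-07), with a second probe at 1.77. The wild-type clones lay outside both, at 2.52 and 2.59 in clone 2, with -2.27 and -2.42 in clone 9. CCL2, the monocyte chemoattractant, read -0.51 and -0.56 in clone 8 and 0.70 and 0.51 in clone 21, and wild-type clone 2 was far above them at 1.97 and 2.08. CCL20, a chemokine for dendritic cells and lymphocytes, was low in clone 21 alone, at -1.14 and -0.95. The call of IL1A was lost without clone 21 replicate 2, at adjusted p = 0.0558, and that of TNFAIP6 without clone 8 replicate 1 or clone 21 replicate 1, at adjusted p up to 0.0676.

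Of 21 heat shock and integrated stress response genes, 8 were called (38.1%, against 4.58% of all genes). TRIB3, ATF3, ATF4, ASNS, PSAT1 and PHGDH were higher in clone 8, and HSPA1A and HSPB1 were higher in clone 21. ASNS, asparagine synthetase, read 1.04 and 1.08 in clone 8, -0.58 and -0.55 in clone 21, -1.06 and -1.17 in wild-type clone 2, with 0.55 and 0.68 in wild-type clone 9 (1.63 ± 0.10, 3.09-fold, adjusted p = 1.4e-06). Clone 8 was the highest of the 4 clones, and a second probe differed by 1.46.

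PHGDH, the first enzyme of serine synthesis, read 0.97 and 0.74 in clone 8 and -0.50 and -0.43 in clone 21, with wild-type arrays from -0.24 to 0.14 (1.32 ± 0.11, adjusted p = 2.1e-05). PSAT1, the next enzyme of that pathway, read 0.65 and 0.72 against -0.21 and -0.21. Its second probe differed by -0.25 and was not called, and the mean of its probes was not called (0.32, adjusted p = 0.0566). The calls of TRIB3, ATF3 and ATF4, each below 2-fold, were lost without at least 1 array, at adjusted p up to 0.0914, and that of ATF3 also on the mean of its probes (0.20, adjusted p = 0.220). HSPA1A, an inducible HSP70 gene, read -1.03 on both arrays of clone 8 and 0.75 and 0.69 in clone 21 (-1.75 ± 0.12, adjusted p = 1.8e-06), though it has a near-identical copy and the probe may not separate them. HSPB1, the small heat shock protein HSP27, read 1.15 and 1.30 in clone 21 and -0.22 to 0.18 on the other 6 arrays (-1.25 ± 0.12, adjusted p = 7.0e-05).

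Of 24 hypoxia and glycolysis genes, ENO2 was called higher in clone 8, and ALDOC, CA12, ANKRD37, PFKFB4 and PGM1 higher in clone 21 (25.0% called, against 4.58% of all genes). ENO2, the neuronal enolase, read -2.25 and -2.32 in clone 21, -0.22 and -0.23 in clone 8 and 0.22 to 0.69 in the wild-type clones (2.06 ± 0.12, adjusted p = 5.6e-07). The 2 glycolytic enzymes with the largest differences thus lay on opposite sides. The calls of ANKRD37, PFKFB4 and PGM1 were lost whichever array was left out, at adjusted p up to 0.223.

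Of 23 TGF-beta and activin genes, TGFB3, LTBP3 and PMEPA1 were called higher in clone 21 (13.0% called, against 4.58% of all genes). PMEPA1, a target and inhibitor of TGF-beta signalling, read -1.33 and -1.26 in clone 8, 0.24 and 0.24 in clone 21 and -0.19 to 0.07 in the wild-type clones (-1.53 ± 0.10, adjusted p = 1.8e-06). Its other 3 probes differed by -0.79 to 0.11, with 1 called. LTBP3, which tethers latent TGF-beta to the matrix, read -0.56 and -0.64 in clone 8 and 0.40 and 0.40 in clone 21 on the called probe, while its other 3 probes differed by 0.05 to 0.24, and the mean of its probes was not called (-0.15, adjusted p = 0.527).

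Of 33 growth factors and receptor kinases, FGF5 was called higher in clone 8 and ERBB2, TGFA, PDGFB, PDGFRB and KITLG higher in clone 21 (18.2% called, against 4.58% of all genes). All but ERBB2 and PDGFRB were lost without at least 1 array, at adjusted p up to 0.308. ERBB2, a receptor kinase of the EGF receptor family, read -0.67 and -0.72 in clone 8 and 0.35 and 0.22 in clone 21 (-0.98 ± 0.10, adjusted p = 0.000120), and its other 2 probes, at -0.18 and -0.06, were not called. PDGFRB, a receptor for platelet-derived growth factor, read -0.50 and -0.48 in clone 8 and 0.43 and 0.29 in clone 21 (-0.85 ± 0.11, adjusted p = 0.000633).

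Among cell identity markers, 4 of 20 mesenchymal genes were called (20.0%, against 4.58% of all genes), SNAI2 higher in clone 8 and CDH11, MYL9 and S100A4 higher in clone 21, of which S100A4 was lost without at least 1 array (adjusted p up to 0.0672). CDH11, a cadherin of mesenchymal cells, read -0.99 and -1.07 in clone 8 and 0.48 and 0.50 in clone 21 (-1.52 ± 0.10, adjusted p = 1.7e-06), but wild-type clone 2 read 1.77 and 1.76 and wild-type clone 9 read -0.48 and -0.53. KRT8 was the single call among 24 epithelial markers (4.17%), at -0.51 ± 0.11, and it was lost whichever array was left out, at adjusted p from 0.108 to 0.162. None of 11 retinal pigment epithelium markers was called by limma, and 2 had a probe at an unadjusted p under 0.05. These values are differences and say nothing of the level of any marker.

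Among the other lists, 1 of 22 p53 targets was called (4.55%, against 4.58% of all genes). SPATA18, a p53-induced mitochondrial quality control gene, read 0.14 and 0.19 in clone 8 and -1.49 and -1.62 in clone 21, with wild-type arrays from -0.23 to 0.96 (1.72 ± 0.11, adjusted p = 1.4e-06). None of 32 proliferation genes was called by limma, 2 had a probe at an unadjusted p under 0.05, and their differences lay between -0.34 and 0.17. Of 25 cancer-testis genes, 16.0% were called, of which PRAME, MAGEC2 and DDX43 were higher in clone 21 and SSX4, which has a near-identical copy, was higher in clone 8. The calls of DDX43 and SSX4 were lost without at least 1 array, at adjusted p up to 0.294. PRAME, a tumour antigen, read -0.62 and -0.75 in clone 8, 0.23 and 0.19 in clone 21 and 0.64 and 0.62 in wild-type clone 9. Of 32 homeobox genes, HOXC13 was called (3.12%), higher in clone 21 by 0.54, and the call was kept only without clone 8 replicate 2.

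The globin genes were examined with their neighbours after the value of HBE1 was seen. From HBB to OR51I2 on chromosome 11, 14 genes were measured, in RefSeq order. Of these, 7 were called higher in clone 8 (against 1.93% of all genes), 6 of them at 2-fold (against 0.289%). The number called higher in clone 21 was 0 (against 2.65% of all genes). The 6 genes HBG1, HBG2, HBE1, OR51B4, OR51B2 and OR51B5 follow one another among the measured genes, and OR51I1 lies further along. HBG1 and HBG2, the fetal gamma-globin genes, differed by 1.39 ± 0.13 and 1.39 ± 0.10, but they are near-identical copies, so their probes may not be separate measurements.

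OR51B4, an olfactory receptor gene, read 0.59 and 0.60 in clone 8, -2.11 and -2.16 in clone 21 and -0.65 to 0.70 on the wild-type arrays (2.73 ± 0.10, adjusted p = 1.7e-08). The 2 probes of OR51B5 differed by 2.54 and 1.58, and OR51B2 by 0.69. OR51I1 read 0.55 and 0.53 in clone 8 against -0.67 and -0.48 in clone 21. In all 7 genes clone 21 lay below every other array. HBB, the adult beta-globin gene, differed by -0.08, HBD by 0.10 and HBBP1 by -0.04, and of the genes on the other side OR51B6 differed by -0.09, OR51M1 by 0.20 and OR51Q1 by 0.25, none of them called.

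**Figure D4:**
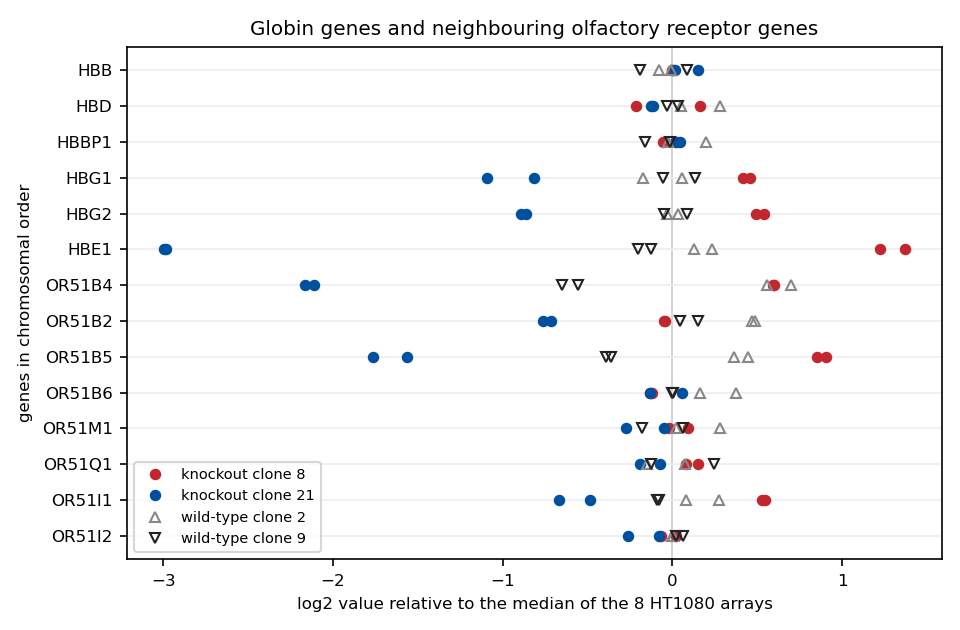
Value of the measured genes from HBB to OR51I2 on each of the 8 HT1080 arrays, on a log2 scale centred on the median of the 8 arrays, with genes in chromosomal order and the probe with the largest difference shown for each. Clone 21 lies to the left of all other arrays from HBG1 to OR51B5 and at OR51I1, reaching -2.99 at HBE1, while HBB, HBD and HBBP1 lie near 0 in every clone.

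By chromosome, the share of genes called ran from 3.09% on chromosome 17 to 5.34% on chromosome 4, except on chromosome 13, where 24.9% of 346 genes were called. On chromosome 13, 81 genes (23.4%) were higher in clone 8 and 5 (1.45%) higher in clone 21. With each array centred, the median value of chromosome 13 genes was -0.06 in clone 21 and 0.02 in clone 8, and -0.00 and 0.02 in wild-type clones 2 and 9. For the 81 genes, clone 21 alone lay below the other 6 arrays in 57 and the clones lay at opposite ends in 20. Their median difference was 0.75, and their median difference from the wild-type mean was -0.68 in clone 21 and 0.12 in clone 8.

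In RefSeq gene order the calls were uneven along the chromosome. Of the first 87 measured genes, up to RFC3, 13 were called higher in clone 8 (14.9%). Of the next 87 it was 35 (40.2%), of the following 86 it was 28 (32.6%), and of the last 86, from SOX21 on, it was 5 (5.81%). The largest of these differences, chosen after the values were seen, were in GJB2, NDFIP2 and SPRY2. NDFIP2, an adaptor of ubiquitin ligases, read -0.01 and 0.01 in clone 8, -1.73 and -1.75 in clone 21 and -0.19 to 0.16 in the wild-type clones (1.74 ± 0.11). SPRY2, an inhibitor of receptor kinase signalling, read 0.15 and 0.11 in clone 8 and -1.57 and -1.54 in clone 21, with the wild-type arrays from -0.14 to 0.23 (1.69 ± 0.10). GJB2, the connexin 26 gene, also had clone 21 lowest, at -1.31 and -1.37, but wild-type clone 9 read 2.81 and 3.08.

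**Figure D5:**
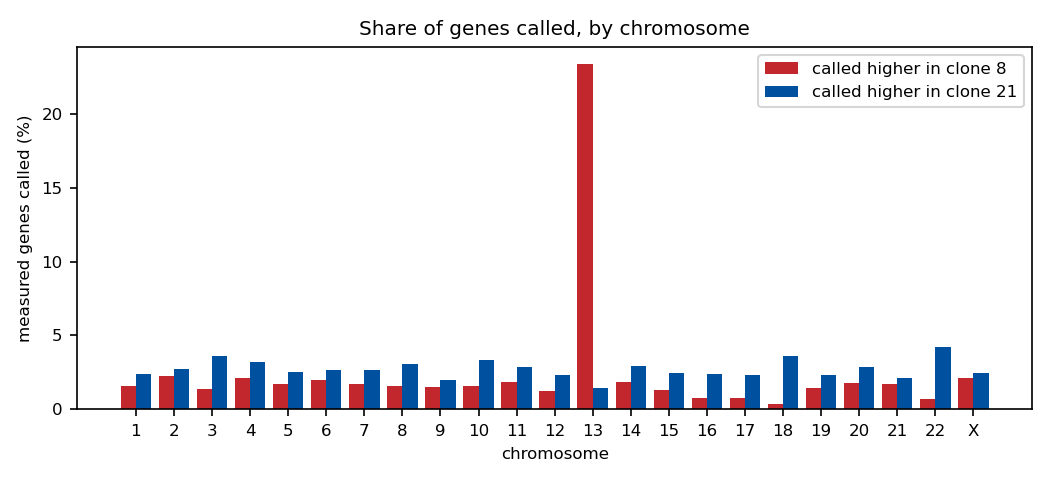
Share of the measured genes of each chromosome, in percent, that were called higher in clone 8 (red) or higher in clone 21 (blue). Chromosome 13 stands apart at 23.4% higher in clone 8, and the bars of the other chromosomes stay at or below 4.19%.

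Every chromosome but 13 had more genes called higher in clone 21 than in clone 8. On chromosome 18, 1 of 276 genes was higher in clone 8 (0.362%, against 1.93% of all genes). Another 10 were higher in clone 21 (3.62%, against 2.65% of all genes), a share like those of chromosome 3 (3.62%) and chromosome 22 (4.19%). At 2-fold the 7 called genes were all higher in clone 21 (2.54%, against 0.564% of all genes), namely CYB5A, PSTPIP2, LIPG, EMILIN2, EPB41L3, MBP and SLC14A1. They did not share a position relative to wild type. CYB5A and SLC14A1 were low in clone 8 alone, MBP was high in clone 21 alone, PSTPIP2 and LIPG lay at opposite ends, and in EMILIN2 neither clone lay outside the other arrays. EPB41L3 was highest in clone 21, at 0.69 and 1.00, with wild-type clone 9 close to it at 0.64 and 0.62. The other 2 probes of MBP were not called, nor was the mean of its probes (-0.35, adjusted p = 0.0686). The median difference over the chromosome was -0.01.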

How the data were processed

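Illumina expression arrays measured total RNA of 24 samples. RNA was extracted, per the labels' protocols, on QIAGEN RNeasy columns and labelled with biotin by an Ambion MessageAmp kit. The authors deposited 1 table of log values, taken here as log2. For HT1080 they are centred per probe, as the values themselves show (largest median of any probe over the 8 HT1080 arrays 5e-07). The sources used here give neither the base of the log nor the background correction, normalization or software. Another base would rescale every difference and move the 2-fold limit.

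Samples were grouped by the clone, genotype and line in the labels. Whether the 2 arrays of a clone come from separate cultures is not in the labels, so p-values measure the spread between arrays of a clone, which may be technical, and 2 arrays per clone limit the precision.

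Values of the 8 HT1080 arrays were fitted with limma 3.58.1 in R 4.3.3 (lmFit and eBayes, clone as a factor with 4 levels), and knockout clone 8 was contrasted with knockout clone 21 over all 47323 probes, with Benjamini-Hochberg adjustment and a threshold of 0.05. No filter was applied. The script was tested on simulated data. Probes were named through the platform annotation and RefSeq (GRCh38.p14). There were 30113 probes with 1 symbol, 8 with several and 17202 with none, and 30074 were named through the Entrez identifier. These gave 20046 genes, 6691 of them with more than 1 probe. Chromosomes and gene order are those of RefSeq.

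The deviations of same-numbered arrays correlated at r = -0.04 between the 2 knockout clones and at -0.04 to 0.12 between the other pairs of HT1080 clones (over probes), so not every pair passed 0.1 and the replicate numbers were not taken as pairs.

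The members and gene lists were chosen with earlier results of these data known. Of named genes, the text gives the 15 with the largest 2-fold difference in each direction, up to 6 called at 2-fold per list, filled up to 2 with other called genes, and the shelterin genes. Other called list members, the promoters shown and genes of chromosomes 11, 13 and 18 were chosen after their values were seen. Alternatives were another set of arrays in the fit, the replicate block, centring, quantile normalization, a robust prior, gene means, named probes, a filter on the range, a threshold of 0.01 and each knockout array left out.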

Additional observations from a re-analysis of the deposited data

How the results depend on the processing

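Directions held for all called genes given above under every alternative run. The 1 reversal was in TERF1, not called at -0.10 and between -0.23 and 0.021 (without clone 21 replicate 2) in the fits that leave out 1 array. All 71 genes given that passed 2-fold kept their calls whichever knockout array was left out, and 36 of 129 called genes lost theirs without at least 1. Leaving an array out assumes that the lone array varies like those of the other clones. Over these 4 fits, probes higher in clone 8 numbered 286 to 334 and higher in clone 21 381 to 476, matrix genes higher in clone 8 5 to 7, interferon genes higher in clone 8 1 to 2 and higher in clone 21 4 to 5, and the TERF2IP difference lay between -0.64 and -0.53. At an adjusted p of 0.01, 323 and 425 probes were called higher in clones 8 and 21, with 7 and 20 matrix genes and 1 and 5 interferon genes. The 4 knockout arrays alone gave 6 interferon genes higher in clone 21. Quantile normalization gave 135 probes at 2-fold higher in clone 8, in place of 87, and a TERF2IP difference of -0.36. Means over the probes of a gene gave 50 and 84 genes at 2-fold, in place of 58 and 113 genes called by single probes. With these means 10 called genes lost their calls, namely LTBP3, COL12A1, DDR1, IFIT3, FGF5, PDGFB, ATF3, PSAT1, SSX4 and MBP. The cause of these shifts was not tested. Some of these settings used fewer arrays or a stricter threshold.

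With the replicate block, 512 and 678 probes were called, all 229 2-fold probes were shared, and TGFBI and SAMD9L were lost among the genes given. As the values hold no signal levels and name no slides, the planned background correction and slide block were not run, and how far dim signal limits a probe is unknown. No clone had enough arrays to look for outlying ones.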
